A study of Homo sapiens with 6 samples.

Results

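ERBB receptors and their ligands were followed in SW403, an established human colon adenocarcinoma line, in 3 control libraries and 3 libraries with IRS2 knocked down. IRS2 encodes insulin receptor substrate 2, an adaptor through which the receptors for insulin and IGF1 reach PI3K and RAS. The control samples carry the genotype WT and the knockdown samples the genotype IRS2_knockdown. Neither group received a treatment, and cells of both were grown for 24 h in DMEM with 10% fetal bovine serum, which itself supplies growth factors. The labels name the samples biological replicates seeded in triplicate. The sample titles name a knockdown, whereas the descriptions say KO. The labels do not say how IRS2 was lowered or whether a group's 3 cultures stem from more than 1 derived line. The p-values therefore measure the spread between these cultures. The 10 genes, of 26490 in the count table, are the receptors EGFR, ERBB2 and ERBB3, the ligands AREG, EREG, TGFA, HBEGF, NRG1 and BTC, and the feedback inhibitor ERRFI1. These members were selected on measured values of this same comparison, ERBB3 being the gene that leads the set. Their differences are therefore described with standard errors and without p-values, and support nothing.

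ERBB proteins are receptor tyrosine kinases that signal as pairs. EGFR binds TGFA, AREG, EREG, BTC and HBEGF, while ERBB3 and ERBB4 bind the neuregulins. ERBB2 has no known ligand of its own and serves as a partner, and ERBB3 has a weak kinase but many docking sites for PI3K. Ligands are made as membrane precursors and released by ADAM proteases. In intestinal epithelium these receptors support proliferation and repair of the crypt, and EGFR is a drug target in colorectal cancer.

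Sequences upstream of 4 members are shown. These members passed an adjusted p of 0.05 in edgeR and had an entry in the RefSeq promoter table (GRCh38.p14). ERBB2 also had reads enough and an entry, but did not pass. EGFR, TGFA and ERRFI1 were higher in the knockdown libraries, and HBEGF was lower. Of the 10 members, 8 matched an entry. Each line gives the 250 bases before the annotated start, 5′ to 3′ on the gene's strand. EGFR and TGFA have 2 entries each, of which only the most upstream was read. Capitals mark GC boxes, the letters GGGCGG on either strand. The windows are chr7:55018767.0-55019016.0 on the plus strand for EGFR, chr2:70553827.0-70554076.0 on the minus strand for TGFA, chr1:8026310.0-8026559.0 on the minus strand for ERRFI1 and chr5:140346604.0-140346853.0 on the minus strand for HBEGF.
EGFR: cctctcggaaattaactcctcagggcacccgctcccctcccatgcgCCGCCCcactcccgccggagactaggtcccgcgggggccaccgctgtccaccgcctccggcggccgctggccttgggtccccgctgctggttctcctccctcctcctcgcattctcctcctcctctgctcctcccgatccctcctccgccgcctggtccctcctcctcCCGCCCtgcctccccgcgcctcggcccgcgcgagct
TGFA: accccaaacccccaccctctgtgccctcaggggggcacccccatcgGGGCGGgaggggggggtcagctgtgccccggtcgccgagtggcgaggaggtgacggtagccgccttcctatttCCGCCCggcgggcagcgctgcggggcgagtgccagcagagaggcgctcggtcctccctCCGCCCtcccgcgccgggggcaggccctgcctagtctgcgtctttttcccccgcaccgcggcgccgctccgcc
ERRFI1: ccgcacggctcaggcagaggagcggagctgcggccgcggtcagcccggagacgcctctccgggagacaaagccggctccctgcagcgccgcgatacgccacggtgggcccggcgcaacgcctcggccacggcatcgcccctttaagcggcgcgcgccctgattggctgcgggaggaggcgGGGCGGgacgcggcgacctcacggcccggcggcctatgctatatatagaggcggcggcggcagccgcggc
HBEGF: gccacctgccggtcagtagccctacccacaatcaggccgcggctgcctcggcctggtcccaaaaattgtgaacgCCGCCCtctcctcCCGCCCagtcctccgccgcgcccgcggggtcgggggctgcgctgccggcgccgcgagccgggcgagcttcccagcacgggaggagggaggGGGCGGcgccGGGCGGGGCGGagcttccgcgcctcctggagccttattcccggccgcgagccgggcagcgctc

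The EGFR window held 2 GC boxes, the TGFA window 3, the ERRFI1 window 1 and the HBEGF window 5, of which a pair overlaps. GC boxes were found in 42.6% of 35116 RefSeq windows of 250 bases. G and C made up 73.6% of the EGFR window, 75.6% of the TGFA window, 75.2% of the ERRFI1 window and 76.4% of the HBEGF window. Members that were higher and the member that was lower thus shared these features. On either strand, none of the 4 windows held the FOXO core GTAAACA (2.98% of windows), the AP-1 letters TGANTCA (6.57%), the CRE letters TGACGTCA (1.65%) or the TATA letters TATAAA (10.7%). Of the other members with an entry, BTC held 1 FOXO core, ERBB2 held 1 AP-1 match and EREG held 1 TATA match. AREG held 1 GC box, 1 CRE and 1 TATA match. ERBB2, BTC and EREG held 0 GC boxes, and G and C made up 65.6% of the ERBB2 window. A match is a run of letters and not a measured binding site.

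The libraries held 11816973 to 12585013 counts in control and 14329348 to 18114656 counts in knockdown, so every knockdown library was the deeper. The targeted gene was lower in the knockdown libraries, though not absent. IRS2 had 408, 437 and 381 counts in control and 186, 210 and 216 counts in knockdown, a log2 fold change of -1.39 ± 0.07 (SE; edgeR's quasi-likelihood test, adjusted p = 3.12e-11). Colon epithelial genes were present in part. The keratins KRT8 and KRT18 had 12881 to 19811 counts per library, and CDX2, an intestinal transcription factor, had 943 to 1541. KRT20, CDX1 and CEACAM5 were at 0 in all 6 libraries, and CDH1, LGALS4 and GPA33 had at most 5 counts. Among the 14 epithelial markers, 8 were tested, 3 rose and 2 fell (62.5%, compared with 38.5% of all tested genes). The tight-junction gene CLDN4 rose by 1.09 ± 0.04 on the log2 scale (SE; edgeR adjusted p = 8.53e-13), whereas KRT19 fell by 0.47 ± 0.04 on that scale (SE; edgeR adjusted p = 4.35e-08).

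Of markers of other cell types, the 10 fibroblast genes had a summed level (in CPM, the usual depth-scaled read count) between 12.0 and 31.5 in control libraries and between 8.58 and 11.2 in knockdown, so the groups did not overlap. Of these 10 genes, 4 were tested and 2 fell, the collagen genes COL1A1 and COL3A1. Among all tested genes 19.2% were lower, and 4 genes are too few to compare with that share. PDGFRB and ACTA2 are named with their values known. PDGFRB did not pass (-0.18 ± 0.25, SE; edgeR adjusted p = 0.609). ACTA2 had 46, 46 and 31 counts in control and 42, 43 and 65 in knockdown. The collagen gene COL1A1 had 193, 72 and 67 counts in control, and control replicate 1 also held 86 of the COL1A2 counts and 34 of the COL3A1 counts. Without that library the log2 fold change of COL1A1 was -0.50, compared with -1.15 with it, and that of COL3A1 was -1.04, no longer past the threshold, compared with -1.71. DCN, THY1 and FAP had at most 3 counts. The 10 immune markers summed to 2.54 to 4.26 CPM in control and 3.25 to 3.59 in knockdown, with CD3D and MS4A1 at 0 in every library. The 7 endothelial markers summed to 9.43 to 12.5 CPM in control and 9.94 to 12.9 in knockdown, with PECAM1 and CDH5 at 0 in every library. Most of that sum was EGFL7, with 105 to 215 counts per library, and no other endothelial marker had more than 11. The part of the fibroblast markers in the results was not tested. Without control replicate 1 the log2 fold change of ERBB3 was 1.37 and that of EGFR was 0.65, compared with 1.40 and 0.70 with it.

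Over all genes, 13832 passed the expression filter, and 38.5% of them passed an adjusted p of 0.05 in edgeR, 19.3% higher and 19.2% lower in knockdown. The split moved with the scaling, from 2676 higher and 2653 lower to 2206 and 3198 with library size alone and to 2354 and 3012 with upper-quartile factors. Of the 10 members, 6 passed the filter, namely EGFR, ERBB2, ERBB3, TGFA, HBEGF and ERRFI1. Of these 6, 4 were past the threshold and higher (EGFR, ERBB3, TGFA and ERRFI1), 1 was past it and lower (HBEGF), and ERBB2 was not past it. The groups of 3 did not overlap in 5 of the 6, compared with 47.6% of all tested genes. Because this comparison chose the members, nothing is read from these shares. The median log2 fold change of the 6 was 0.32, and that of all tested genes was -0.0039. In bulk RNA, a change in the number of cells that make a transcript and a change in RNA per cell cannot be told apart.

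**Figure D1:**
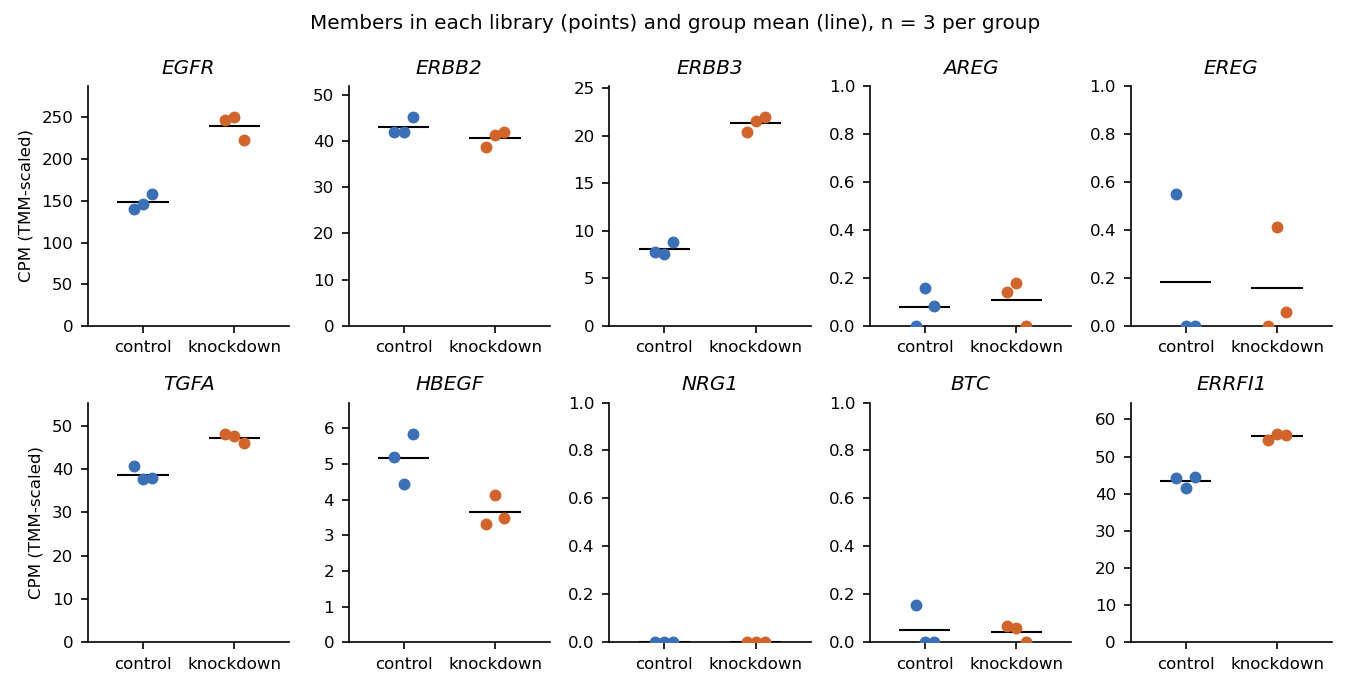
CPM of the TMM-scaled library size (vertical axes, each starting at 0) for the 10 members in 3 control (blue) and 3 knockdown (orange) libraries, with the group mean as a line. ERBB3 sits between 7.61 and 8.85 CPM in control and between 20.4 and 21.9 CPM in knockdown, while AREG, EREG, NRG1 and BTC stay under 1 CPM.

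Receptors are taken first. ERBB3 lies on chromosome 12 (GRCh37, 56470583 to 56497289, plus strand) and has 28 exons in its canonical transcript. It had 99, 96 and 106 counts in control and 290, 364 and 391 in knockdown. Scaled for depth, this was 7.78, 7.61 and 8.85 CPM against 20.4, 21.5 and 21.9 CPM. All 3 knockdown libraries were far above all 3 controls, and the gap was many times the spread within a group. The log2 fold change was 1.40 ± 0.09 (SE), a 2.64-fold higher level. By log2 fold change ERBB3 was in place 21 among all tested genes, and 3.07% of tested genes had a larger change in either direction.

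EGFR, the receptor for most of the ligands listed here, lies on chromosome 7 (GRCh37, 55086710 to 55279321, plus strand). Control libraries were at 139.7, 146 and 158 CPM, and knockdown libraries at 247, 250.1 and 223 CPM. The groups did not overlap, and knockdown replicate 3 was the lowest of its group. The log2 fold change was 0.70 ± 0.05 (SE), or 1.62-fold. Counts behind these levels ran from 1777 to 4227 per library, so EGFR was measured with the smallest counting error of the members. Its antisense neighbour EGFR-AS1, which overlaps 186 nt of its exons, had at most 7 counts.

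ERBB2, the partner receptor, lies on chromosome 17 (GRCh37, 37844167 to 37886679, plus strand). Control libraries held 42.0, 41.9 and 45.1 CPM, and knockdown libraries held 38.7, 41.2 and 41.98 CPM. The groups overlapped by a narrow margin, and they did not when counts were scaled to library totals alone. Its log2 fold change was -0.08 ± 0.05 (SE). How ERBB2 stood relative to ERBB3 and EGFR can be read within each library, from the ratios given further on. Such ratios do not give the direction of ERBB2 itself. On the opposite strand MIEN1 overlaps 571 nt and PGAP3 overlaps 144 nt of ERBB2 exons. The strand setting of the counting is not given in the sources used here, so reads from such antisense pairs cannot be told apart. Control and knockdown means of MIEN1 itself were 24.2 ± 2.10 and 22.5 ± 0.77 CPM (SD, n = 3 each).

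ERBB4, the remaining receptor of the family and no member of the set, was too low for the filter, with 12, 10 and 6 counts in control and 2, 4 and 2 in knockdown. Despite the greater depth of the knockdown libraries, each held fewer ERBB4 counts than any control library. In the fit with no filter its log2 fold change was -2.13 ± 0.60 (SE; edgeR adjusted p = 0.00218). That fit gave far smaller p-values than the filtered fit, so the 2 are not comparable. For IRS2 the edgeR adjusted p was 3.65e-66 with no filter and 3.12e-11 with it. ERBB3 and ERBB4, both neuregulin receptors, thus moved in opposite directions, ERBB4 from a level close to the limit of detection.

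Levels of different genes were compared per length, as CPM divided by the length of the canonical transcript in kilobases. In control, with the canonical length, EGFR was highest at 14.95 ± 0.94 (SD, n = 3), followed by ERRFI1 at 14.0 ± 0.51, and their libraries overlapped. ERBB2 at 9.44 ± 0.40 and TGFA at 9.40 ± 0.39 came next and also overlapped. HBEGF at 2.19 ± 0.30 and ERBB3 at 1.44 ± 0.12 were lowest and did not overlap with each other. In knockdown ERBB3 reached 3.79 ± 0.14 and stood above HBEGF at 1.54 ± 0.19. With the longest transcript as length, TGFA stood above ERBB2 in control, still with overlap. With the union of exons, ERRFI1 at 10.4 ± 0.38 stood above EGFR at 9.29 ± 0.58 and TGFA at 7.87 ± 0.33 above ERBB2 at 4.17 ± 0.18 (SD, n = 3 each), without overlap, so the order of these genes depends on the length used. Under all 3 lengths ERBB3 was the lowest of the 6 genes in control, and it differed most between the groups.

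Within the summed per-length level of the 4 receptors, the make-up shifted. EGFR made up 57.7% ± 0.71 in control and 65.5% ± 2.12 in knockdown (SD, n = 3 each), and ERBB2 made up 36.5% ± 0.62 and 24.1% ± 1.52. ERBB3 went from 5.55% ± 0.21 to 10.3% ± 0.61, and ERBB4 from 0.24% ± 0.08 to 0.036% ± 0.013. The summed level was 25.9 ± 1.41 in control and 36.9 ± 1.25 in knockdown. The share of ERBB2 was lower while its own level was 9.44 ± 0.40 in control and 8.91 ± 0.38 in knockdown (SD, n = 3 each). Transcript length is uncertain here, and the control share of EGFR was 59.7% with the longest transcript and 65.4% with the union of exons as length.

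**Figure D2:**
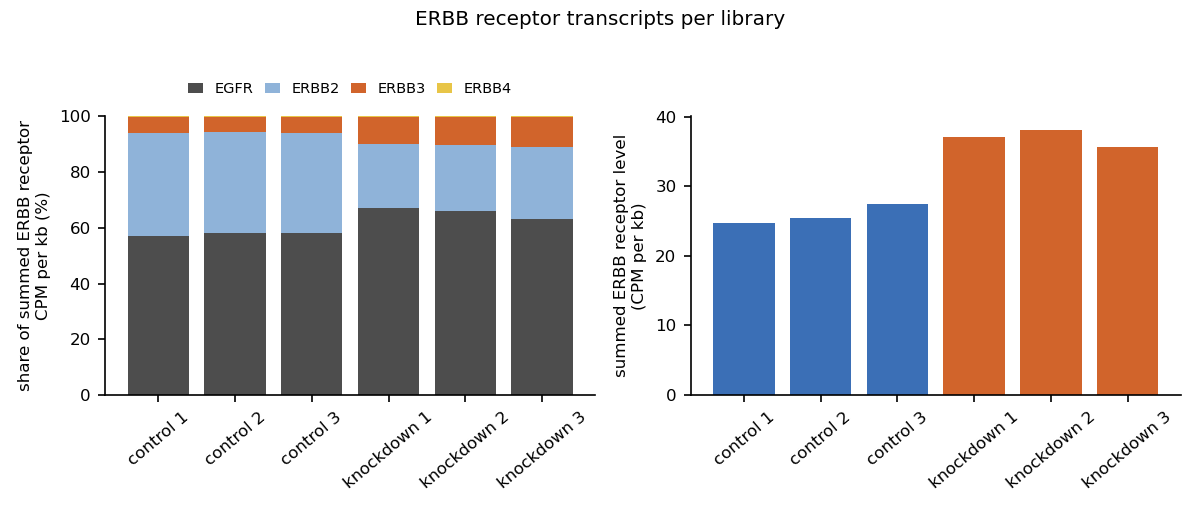
Left, the share of each ERBB receptor in the summed CPM per kilobase (percent) in the 3 control and 3 knockdown libraries. Right, the summed level itself, from 0. The ERBB3 share is 5.55% on average in control and 10.3% in knockdown, and the sum is higher in every knockdown library.

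Ratios inside a library do not depend on how libraries are scaled. ERBB2 transcripts per ERBB3 transcript, per length, numbered 6.65, 6.79 and 6.28 in control and 2.34, 2.36 and 2.36 in knockdown. The knockdown values nearly coincide, and every control value is far above them. EGFR per ERBB3 was 10.2, 10.9 and 10.1 in control and 6.86, 6.58 and 5.76 in knockdown. The ratio of EGFR to ERBB2 went the other way, from 1.53, 1.61 and 1.61 to 2.94, 2.79 and 2.44. For none of the 3 ratios did the groups overlap.

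TGFA was the most abundant ligand among the members. This EGFR ligand lies on chromosome 2 (GRCh37, 70674416 to 70781325, minus strand). Its level was 40.6, 37.6 and 37.9 CPM in control and 48.1, 47.5 and 45.9 CPM in knockdown, with no overlap. The log2 fold change was 0.28 ± 0.05 (SE), or 1.22-fold, smaller than that of either EGFR or ERBB3.

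HBEGF, which binds EGFR and ERBB4, was the member that went down. It lies on chromosome 5 (GRCh37, 139712428 to 139726188, minus strand). Values were 5.19, 4.44 and 5.85 CPM in control and 3.31, 4.14 and 3.48 CPM in knockdown. The groups stood apart by a narrow gap, control replicate 2 being close to knockdown replicate 2. The log2 fold change was -0.49 ± 0.17 (SE), from 47 to 70 counts per library. HBEGF did not stay past the threshold in 8 of 19 alternative analyses, among them those without control replicate 1 (-0.49), control replicate 3 (-0.39), knockdown replicate 1 (-0.43) or knockdown replicate 3 (-0.46). Its direction was negative in all of them. Per length, TGFA per HBEGF was 4.48, 4.86 and 3.71 in control and 8.34, 6.57 and 7.56 in knockdown, without overlap.

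The other ligands were barely detected. AREG had 0, 2 and 1 counts in control and 2, 3 and 0 in knockdown. EREG had 7, 0 and 0 counts in control and 0, 7 and 1 in knockdown. BTC had 2, 0 and 0 counts in control and 1, 1 and 0 in knockdown. For none of these genes could a difference be detected at this depth. NRG1, an ERBB3 ligand on chromosome 8, had no count in any library, where a count of 0 allows up to 3 counts (counting error only), or 0.168 to 0.251 CPM. AREG is uncertain because AREGB, a copy on the same chromosome (GRCh37, 75480629 to 75490486), matches it at 99.92% of 1234 aligned nt and has no row of its own in the count table.

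AREG (75310853 to 75320722), EREG (75230862 to 75254466) and BTC (75669969 to 75719733) lie near each other on chromosome 4, with EPGN, another EGFR ligand, at 75174187 to 75182506. All 4 genes fall within 545.5 kb. No gene of this cluster had more than 7 counts in a library, and the 4 genes had 28 counts in all 6 libraries together. The detected ligands TGFA and HBEGF lie on other chromosomes.

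Of the family's other ligands, NRG2, a neuregulin, was the one with substantial counts. NRG2 had 11.2, 13.2 and 12.4 CPM in control and 14.3, 13.9 and 16.5 CPM in knockdown. The groups did not overlap, and NRG2 rose by 0.29 ± 0.10 on the log2 scale (SE; edgeR adjusted p = 0.0222), a call lost in 5 of 19 alternatives, including those without control replicate 1 (0.23) or knockdown replicate 3 (0.21). EGF had 8, 8 and 6 counts in control and 4, 3 and 3 in knockdown. In the fit with no filter its log2 fold change was -1.47 ± 0.61 (SE; edgeR adjusted p = 0.0546). The p-values of that fit are not comparable with those of the filtered fit. NRG4 had 5 to 17 counts in control and 10 to 15 in knockdown, and its log2 fold change of -0.23 ± 0.38 (SE; edgeR adjusted p = 0.67) did not pass. EPGN had 1 count in all and NRG3 none.

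ERRFI1 encodes MIG6, which binds the EGFR kinase domain and inhibits it, and is itself induced by EGFR signalling. The gene lies on chromosome 1 (GRCh37, 8064464 to 8086369, minus strand). Its level was 44.3, 41.6 and 44.4 CPM in control and 54.4, 56.2 and 55.95 CPM in knockdown. The groups were well apart, and the log2 fold change was 0.36 ± 0.05 (SE), or 1.28-fold. Per length ERRFI1 was at 17.9 ± 0.30 in knockdown (SD, n = 3), below EGFR at 24.2 ± 1.49. A lncRNA on the opposite strand, not in the count table, overlaps 155 nt of ERRFI1 exons.

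**Figure D3:**
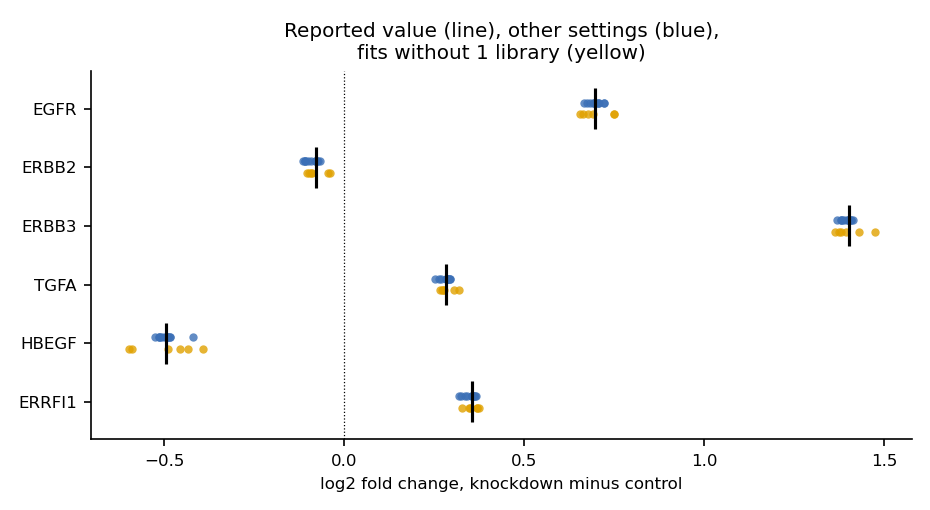
Log2 fold changes (knockdown minus control, horizontal axis) of the 6 tested members as reported (black line), under other settings (blue) and without 1 library each (yellow). ERBB3 stays between 1.36 and 1.47 and EGFR between 0.65 and 0.75, while HBEGF spreads from -0.60 to -0.39.

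How the ERBB receptors compare with other receptor tyrosine kinases was read from a list of 36 genes. Of these, 24 were tested, 6 rose and 8 fell (58.3%, compared with 38.5% of all tested genes). The median log2 fold change of the 24 was -0.01. Among these 24 and the 3 tested receptors, ERBB3 had the highest log2 fold change, FGFR4 was next and EGFR the third. The ERBB members were selected on values of this same comparison, with ERBB3 as the lead. Their places in the order were thus partly set by that choice, and nothing is read from them. FGFR4, a receptor for FGF19, rose by 0.91 ± 0.05 on the log2 scale (SE; edgeR adjusted p = 8.67e-11), from 44.4 ± 3.04 to 83.6 ± 1.54 CPM (SD, n = 3 each). AXL, the GAS6 receptor, rose by 0.29 ± 0.04 on that scale (SE; edgeR adjusted p = 2.85e-06). The largest falls in the list were those of the collagen receptor DDR2 (-1.73 ± 0.14, SE; edgeR adjusted p = 1.61e-08) and of FGFR3 (-1.71 ± 0.12, SE; edgeR adjusted p = 2.82e-09). Expression of receptor kinases thus changed in both directions, and the insulin receptor gene INSR, chosen after its values were seen, did not pass (0.17 ± 0.07, SE; edgeR adjusted p = 0.0786).

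**Figure D4:**
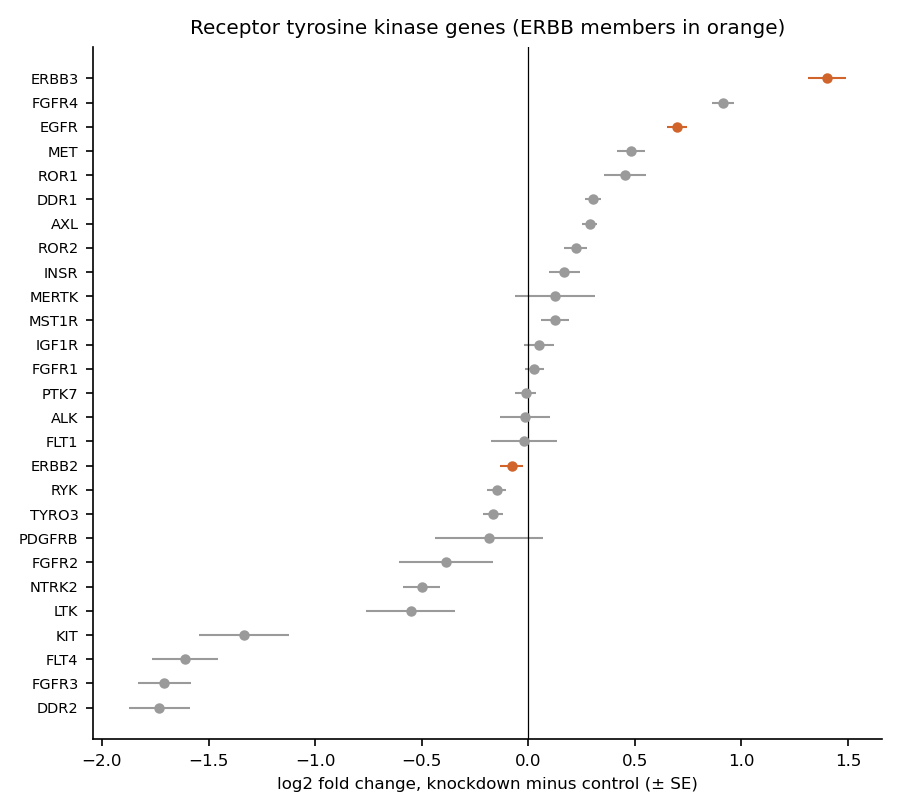
Log2 fold change with SE (horizontal axis, knockdown minus control) of 27 tested receptor tyrosine kinase genes, sorted, with ERBB members in orange. ERBB3 at 1.40 is at the top, EGFR at 0.70 is the third and ERBB2 at -0.08 lies near 0, while DDR2 at -1.73 is at the bottom. The ERBB members were selected on values of this comparison.

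Genes that act around the ERBB receptors were read from 10 lists of 189 genes, members and IRS2 left out. Of these, 163 were tested, 60 rose and 27 fell, which is 53.4% compared with 38.5% of all tested genes. No test of the lists themselves was made. Ligand release had 15 tested genes, of which 7 rose (46.7%). None of them fell in edgeR (1 at an unadjusted p under 0.05, and 0 in DESeq2 and in limma voom). Among these, the sheddase ADAM17, chosen after its values were seen, had a log2 fold change of 0.31, and its relative ADAM19 rose by 0.24 ± 0.03 (SE; edgeR adjusted p = 1.30e-05). TIMP2, a metalloprotease inhibitor, rose by 0.61 ± 0.04 (SE; edgeR adjusted p = 1.62e-09), so protease genes and an inhibitor gene were among the 7. The related TIMP1 (-0.10) and TIMP3 (-0.08), chosen after their values were seen, did not pass.

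Adaptors that dock on the receptors had 24 tested genes, of which 8 rose and 3 fell (45.8%, compared with 38.5% of all tested genes). GAB2, a docking protein for PI3K, went from 5.10 ± 0.73 to 8.41 ± 0.11 CPM (SD, n = 3 each; edgeR adjusted p = 2.90e-04), and SHC1 rose by 0.26 ± 0.03 on the log2 scale (SE; edgeR adjusted p = 1.79e-06). CRKL (-0.27 ± 0.04, SE; edgeR adjusted p = 2.87e-05) and the phosphatase gene PTPN11 (-0.18 ± 0.03, SE; edgeR adjusted p = 3.34e-04) fell. GAB1, related to GAB2 and chosen after its values were seen, also fell (-0.31).

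Of the RAS to ERK kinases and their regulators, all 18 were tested, and 11 rose and 4 fell. This was 83.3%, compared with 38.5% of all tested genes. The median log2 fold change of the 18 was 0.15. MAPK3, which encodes the kinase ERK1, fell by 0.42 ± 0.05 on the log2 scale (SE; edgeR adjusted p = 5.25e-06). HRAS also fell, from 46.5 ± 2.86 to 34.3 ± 0.33 CPM (SD, n = 3 each; edgeR adjusted p = 4.57e-06). Genes of the ERK-activated RSK kinases moved in both directions. RPS6KA1 rose by 0.37 ± 0.04 (SE; edgeR adjusted p = 1.46e-06), while RPS6KA2, chosen after its values were seen, fell by 1.46 ± 0.23 (SE; edgeR adjusted p = 4.22e-05), from 3.61 ± 0.34 to 1.31 ± 0.29 CPM (SD, n = 3 each).

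PI3K and AKT genes numbered 15, all tested, of which 6 rose and 2 fell (53.3%, compared with 38.5% of all tested genes). The catalytic subunit gene PIK3CD went from 6.09 ± 1.04 to 10.6 ± 0.22 CPM (SD, n = 3 each; edgeR adjusted p = 4.46e-05), and PIK3CB rose by 0.24 ± 0.05 on the log2 scale (SE; edgeR adjusted p = 4.29e-04). The lipid phosphatase genes INPPL1 (-0.21 ± 0.04, SE; edgeR adjusted p = 5.41e-04) and INPP4B (-0.87 ± 0.33, SE; edgeR adjusted p = 0.0435) fell, the latter from under 2 CPM and with its call lost in 8 of 18 alternatives, among them those without control replicate 2 (-0.51), knockdown replicate 1 (-0.93) or knockdown replicate 2 (-0.59).

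Among 28 negative regulators and endocytic genes, all tested, 8 rose and 3 fell, close to the share over all genes. LRIG1, which promotes degradation of ERBB receptors, rose by 0.69 ± 0.05 on the log2 scale (SE; edgeR adjusted p = 1.12e-08), and LRIG3 of the same family fell from 3.42 ± 0.65 to 1.36 ± 0.40 CPM (SD, n = 3 each; edgeR adjusted p = 3.01e-04). SH3KBP1, an adaptor in EGFR endocytosis, rose by 0.51 ± 0.04 (SE; edgeR adjusted p = 2.42e-09). PTPRK, a receptor phosphatase gene, fell by 0.19 ± 0.06 (SE; edgeR adjusted p = 0.0102), a call lost in 4 of 19 alternatives, including that without control replicate 3 (-0.15).

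The 10 genes that commonly follow MAPK activity were all tested, and 6 rose and 1 fell (70.0%, compared with 38.5% of all tested genes). CCND1, the cyclin D1 gene, rose from 509 ± 8.74 to 723 ± 1.95 CPM (SD, n = 3 each; edgeR adjusted p = 7.16e-11), and the ephrin receptor gene EPHA4 rose by 0.54 ± 0.07 on the log2 scale (SE; edgeR adjusted p = 2.38e-06). PHLDA1 fell by 0.12 ± 0.04 (SE; edgeR adjusted p = 0.0384), a call lost in 12 of 19 alternatives, including those without each control library (-0.10, -0.11 and -0.13) and without each knockdown library (-0.11, -0.12 and -0.12).

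FOXO factors are held out of the nucleus by AKT, and ERBB3, INSR and IRS2 are textbook targets of them, which is why both lists were read. None of the 4 FOXO genes passed in edgeR, in either direction (0 at an unadjusted p under 0.05, and 0 in DESeq2 and in limma voom). Of 27 tested target genes, IRS2 included, 8 rose and 7 fell (55.6%, compared with 38.5% of all tested genes). The cell-cycle inhibitor CDKN1B rose by 0.53 ± 0.05 on the log2 scale (SE; edgeR adjusted p = 5.89e-08) and TXNIP by 0.36 ± 0.04 (SE; edgeR adjusted p = 1.77e-07). CCNG2, by contrast, fell by 1.21 ± 0.11 (SE; edgeR adjusted p = 1.07e-07). Genes past the threshold in this list thus went in both directions. Among those that fell was IRS2, the gene knocked down, and ERBB3 was not in the list. Whether FOXO activity differed was not tested.

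**Figure D5:**
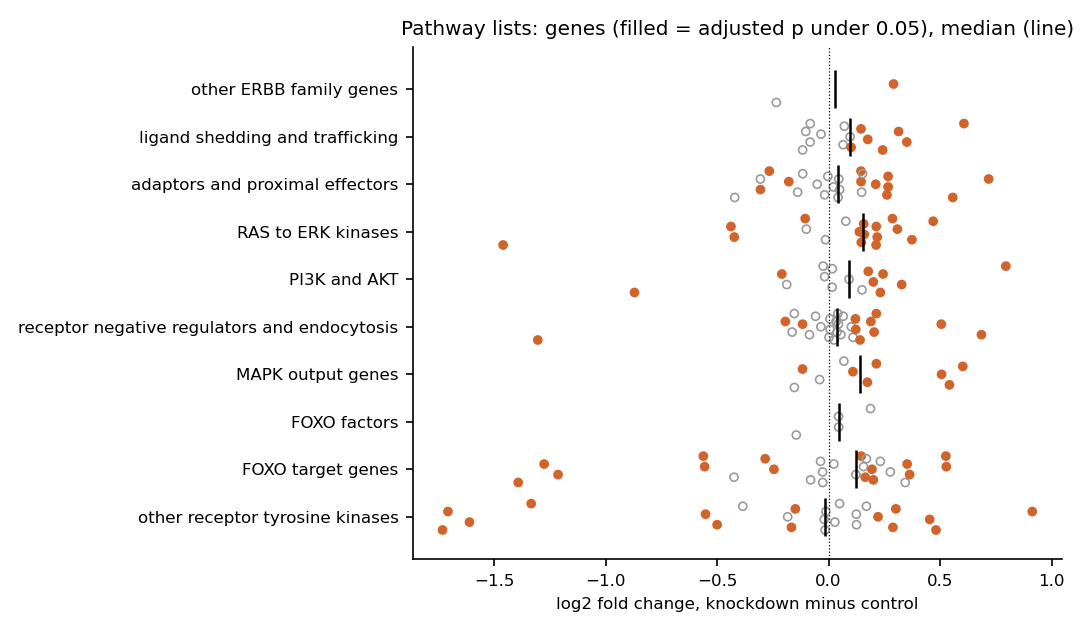
Log2 fold changes (knockdown minus control, horizontal axis) of the tested genes in the 10 lists around the ERBB receptors, filled where the edgeR adjusted p is under 0.05, with the list median as a line. RAS to ERK kinases have 15 of 18 points filled, 11 to the right and 4 to the left, and the 4 FOXO factors have none.

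The genes most like ERBB3 were sought among 10449 genes averaging 100 counts or more, by the distance between log2 CPM values centred over the 6 libraries. The 5 nearest were DKK4, a secreted Wnt inhibitor (distance 0.194), TULP3 (0.243), MYO3B (0.244), FGF19, the hormone-like ligand of FGFR4 (0.247), and SLC22A3, an organic cation transporter (0.25). DKK4 had control values of 56.5, 53.9 and 55.9 CPM and knockdown values of 153, 149 and 155 CPM. FGF19 had control values of 11.2, 11.6 and 10.9 CPM and knockdown values of 27.6, 27.8 and 28.5 CPM. As with ERBB3, the groups of both were far apart and tight. Ranked by Pearson correlation over the same 6 libraries instead, 0 of the 5 were shared, because that measure does not depend on the size of the difference. These likenesses rest on 2 groups of libraries and are descriptions.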

How the data were processed

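RNA-seq libraries were made from total RNA of 6 SW403 cultures with a NEBNext Ultra II RNA kit, per the labels' protocols. The submitters' processing notes name STAR 2.6.1a, Salmon, DESeq2 and hg19, with no role or order. The authors deposited a table of whole-number read counts per gene symbol and a table of normalized signal. In the deposited signal table, counts of a library are divided by 1 constant (0.847 to 1.25), and 16213 genes whose counts sum to at least 10 are listed. Replicate pairs differed by more than counting error (chi-square per degree of freedom 1.41 to 2.78).

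Counts were tested with edgeR 4.0.16 in R 4.3.3 (TMM factors, filterByExpr with a minimum count of 10, quasi-likelihood F-test, group as the only term), and p-values were adjusted by Benjamini-Hochberg over all 13832 tested genes, with 0.05 as threshold. The SE was obtained from the log2 fold change and its F statistic (absolute change over the root of F). CPM values use the TMM-scaled library size. Lengths and GRCh37 positions come from GENCODE version 44 lifted to GRCh37, which may differ from the annotation used for counting. Floors of 3 counts cover counting error only. The fit was tested on simulated data.

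The members and lists were chosen with earlier results of these data known. Genes named from the lists were the 2 with the smallest p in each direction among those past the threshold. Not every gene so chosen is reported here. The genes most like ERBB3 were the 5 at the smallest distance. A gene outside these rules is marked as picked with its values known. Some genes stand in more than 1 list.

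Alternatives were scaling by library size, by upper quartiles or by DESeq2 size factors, no filter or a minimum mean of 50 counts, DESeq2 1.42.0 (Wald test), limma 3.58.1 on voom values or on the deposited normalized signal (log2, pseudocount 1), thinning to the smallest library, a threshold of 0.01, a replicate block, a length and GC correction (96.3% of tested genes had both values) with and without that block, other transcript lengths, Pearson likeness, and leaving out each library.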

Additional observations from a re-analysis of the deposited data

How the results depend on the processing

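Log2 fold changes kept their direction and side of the threshold in all 19 alternatives for ERBB3 (1.36 to 1.47), EGFR (0.65 to 0.75), TGFA (0.25 to 0.32), ERRFI1 (0.32 to 0.38) and ERBB2 (-0.11 to -0.04, not past it), and for IRS2 (-1.42 to -1.34). All alternatives draw on the same 6 libraries on which the members were selected, and the threshold of 0.01 repeats the reported fit. For the members this stability describes the processing and supports nothing. HBEGF was not past the threshold with the DESeq2 Wald test (-0.49), limma on the deposited normalized values (-0.48), thinned counts (-0.42) and a threshold of 0.01 (-0.49), nor without 4 of the 6 libraries, the range without 1 library being -0.60 to -0.39; the cause was not tested. Genes called numbered 3599 to 5830 over the alternatives. Those higher were 1774 with limma on the deposited normalized values, compared with 2676, and those lower were 1654 with the DESeq2 Wald test, compared with 2653; the cause was not tested. NRG4, far from the threshold, changed sign without control replicate 1 (0.12). The control share of EGFR per length was 59.7% with the longest transcript and 65.4% with the union of exons. Of 679 values for the 36 other named genes, 641 stayed on their side, 37 lost the call and 1 changed sign.

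The replicate numbers are shared between groups by the titles, but deviations of same-numbered libraries had correlations of -0.07, -0.04 and -0.22 over 10449 genes, and 0 of the 6 libraries correlated best with its own number. With the replicate block 4862 genes were called, compared with 5329, and the log2 fold change of ERBB3 was 1.40. Depth limits EREG, NRG1, BTC, EPGN and NRG3, for which no difference could be detected, and EGF and ERBB4, which were read only without the filter. For AREG, low depth and loss of reads to its copy AREGB cannot be told apart.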
